A study of Mus musculus with 405 samples.

Results

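The genes described here are 9 genes of fatty acid handling that were chosen by symbol: Plin2, Cpt1a, Pdk4 and Angptl4, which are known targets of the PPAR receptors; Acadl, Acadm, Hadha and Acaa2, which encode enzymes of mitochondrial beta-oxidation; and Ppara, which encodes the receptor PPARα. They were taken from the 23893 genes of a table of read counts, which held all 9, and the 13304 genes of a table of the chemical screen, which held 8; Angptl4 was not among the genes of the screen. The samples were mouse cortical cultures from embryonic day 15 hybrid embryos (C57BL/6J mothers, CAST/EiJ fathers), a mix of neurons, astrocytes and other cells that was exposed on day 7 in vitro to 1 chemical or to dimethylsulphoxide vehicle for 24 h, after which polyadenylated RNA was sequenced. The paper's methods give an earlier embryonic day than the labels and an antimitotic treatment of all cultures, vehicle cultures included, before the exposure.

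In the screen, 297 chemicals were represented by 344 libraries and vehicle by 49 libraries; 282 chemicals had a single library, and topotecan, an inhibitor of topoisomerase 1, had 32 libraries at 0.3 μM. Values in the screen were log2 deviations from the median of each gene after removal of batch effects by the authors, so that they carried no levels, and the depth of these libraries is unknown. In the count table, 4 libraries exposed to 0.1 μM pyraclostrobin, a strobilurin fungicide that inhibits complex III of the respiratory chain, were set beside 4 vehicle libraries. Library totals were 2409623 to 2550437 counts for pyraclostrobin and 2778615 to 7833440 counts for vehicle. The labels do not say whether these 4 libraries came from separate dissections, and the paper describes fewer biological than sample replicates, with matched vehicle controls; p-values thus measure the spread between libraries, some of which may be technical replicates.

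PPARα, PPARδ and PPARγ are nuclear receptors that are activated by fatty acids, their derivatives and some synthetic acids, and that bind DNA together with a retinoid X receptor. In liver and muscle, PPARα and PPARδ raise genes that bring fatty acids into mitochondria and break them down in cycles of beta-oxidation, in each of which the chain is shortened by an acetyl unit. In the brain, beta-oxidation is known mainly from astrocytes, and neurons are thought to use it little. Fibrates, phthalate monoesters and perfluorinated acids are known activators of PPARα in rodent liver, and the phenoxy acid herbicides are structural relatives of the fibrates.

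The classic PPAR response element is called DR1, a direct repeat of the hexamer AGGTCA with any 1 base between its copies. It was searched on both strands, with up to 2 mismatches, in windows from 250 bases before to 50 bases after RefSeq gene starts of the assembly GRCm38.p6. Windows were found for 7 of the 9 genes, and 1 of them, that of Plin2, held a match; of 32851 windows of the same length, 3.86% did. The bases upstream of the start are shown for Plin2, the member that moved with topotecan and with pyraclostrobin, and for Cpt1a, which was called higher with pyraclostrobin in every fit run, each 5′ to 3′ on the strand of the gene. Capitals mark the match in Plin2, which lies on the opposite strand, begins 225 bases before the start and carries 2 mismatches; the Plin2 stretch is chr4:86670060-86670309 on the minus strand and the Cpt1a stretch is chr19:3323051-3323300 on the plus strand.
Plin2: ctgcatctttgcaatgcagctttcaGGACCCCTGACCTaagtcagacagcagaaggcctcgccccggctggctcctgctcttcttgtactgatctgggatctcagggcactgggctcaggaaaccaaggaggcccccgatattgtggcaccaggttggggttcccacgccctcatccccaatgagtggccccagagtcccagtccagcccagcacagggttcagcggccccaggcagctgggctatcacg
Cpt1a: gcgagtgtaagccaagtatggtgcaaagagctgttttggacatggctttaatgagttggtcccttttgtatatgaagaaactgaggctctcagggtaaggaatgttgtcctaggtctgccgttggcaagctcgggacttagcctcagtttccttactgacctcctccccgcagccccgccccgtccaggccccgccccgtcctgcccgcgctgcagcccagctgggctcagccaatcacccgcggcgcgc
The best position in the Cpt1a window had 4 mismatches. A match of letters is a description of the window, and sites elsewhere in these genes were not searched.

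Cpt1a and Plin2 were higher in cultures exposed to pyraclostrobin, by 9.06-fold and 5.68-fold. The oxidation enzymes Acadl and Hadha were higher by 8.57-fold and 1.91-fold, and Acaa2 hardly differed in its mean. The count table allowed levels to be compared; they are given in CPM, counts scaled to a common library size, after TMM normalisation. In edgeR's quasi-likelihood test, with p-values adjusted by Benjamini-Hochberg for 12324 genes and a threshold of 0.01, 6 of the 9 members had enough counts to be tested (at least 10 counts in at least 4 libraries), 4 of them were called higher and none lower. Of all genes tested, 12.1% were called higher and 9.22% lower.

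Cpt1a encodes the liver form of carnitine palmitoyltransferase 1, the enzyme of the outer mitochondrial membrane that commits long-chain fatty acids to oxidation; the gene lies at 3323301 to 3385732 on chromosome 19 in mm9. Its counts were 283, 145, 170 and 110 in the pyraclostrobin libraries 1 to 4, numbered by the order of their header names, and 31, 21, 40 and 46 in the vehicle libraries 1 to 4, which are 111, 54.5, 64.7 and 43.4 CPM against 11.1, 8.17, 5.39 and 6.9 CPM. The lowest pyraclostrobin library was above the highest vehicle library. The mean was 68.4 ± 29.7 CPM with pyraclostrobin and 7.88 ± 2.4 CPM with vehicle (SD, n = 4 each), a log2 fold change of 3.18 ± 0.32 (SE) with an adjusted p of 5.70e-05 in edgeR's test.

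Plin2 encodes perilipin 2, a protein on the surface of lipid droplets that is commonly used as a marker of stored lipid; the gene lies at 86294290 to 86315964 on chromosome 4 in mm9. Plin2 had 111, 50, 91 and 80 counts in the pyraclostrobin libraries (43.6, 18.8, 34.6 and 31.6 CPM) and 32, 7, 33 and 32 counts in the vehicle libraries (11.4, 2.72, 4.45 and 4.8 CPM). The groups did not overlap, and the vehicle library 1 stood above the other vehicle libraries. The log2 fold change was 2.51 ± 0.38 (SE; edgeR's adjusted p = 0.000533).

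Pdk4 encodes pyruvate dehydrogenase kinase 4, which restrains the use of glucose when fat is burned, and Angptl4 a secreted inhibitor of lipoprotein lipase. Pdk4 had 23, 15, 9 and 13 counts with pyraclostrobin and 6, 4, 8 and 3 with vehicle, and the groups did not overlap in CPM (3.43 to 9.03 against 0.45 to 2.14). It had too few counts for the main test; with no filter on counts, its log2 fold change was 2.21 ± 0.47 (SE; edgeR's adjusted p = 0.00259), in a fit where 15.9% of 18815 genes were called. Angptl4 was near absent, with 1, 1, 1 and 0 counts with pyraclostrobin and 0, 0, 0 and 2 with vehicle, so that no difference was detectable at this depth.

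Acadl and Acadm encode the long-chain and medium-chain acyl-CoA dehydrogenases, which catalyse the first step of each cycle. Acadl had 250, 54, 64 and 54 counts with pyraclostrobin (98.1, 20.3, 24.4 and 21.3 CPM) and 36, 7, 15 and 24 with vehicle (12.8, 2.72, 2.02 and 3.6 CPM). The groups did not overlap, and library 1 was far above the others with pyraclostrobin and highest also with vehicle. The log2 fold change of Acadl was 3.10 ± 0.68 (SE; edgeR's adjusted p = 0.00447), and it was 2.16 without the pyraclostrobin library 1, with an adjusted p of 0.0100 in edgeR's test, just above the threshold, so that the call was lost. The call of Acadl was also lost without the vehicle library 2, 3 or 4, at log2 fold changes of 2.95, 2.74 and 2.94. Acadm had 57, 39, 43 and 28 counts with pyraclostrobin and 32, 13, 82 and 50 with vehicle, in CPM 11.1 to 22.4 against 5.06 to 11.4, and the groups overlapped. Its log2 fold change was 0.86 ± 0.29 (SE), and the adjusted p of 0.0398 in edgeR's test missed the threshold of 0.01.

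Hadha encodes the alpha subunit of the mitochondrial trifunctional protein, which carries out the middle steps of the cycle for long chains, and Acaa2 a thiolase of the last step. Hadha, at 62.4 to 112 CPM with pyraclostrobin against 29.97 to 59.2 CPM with vehicle, did not overlap between groups, with 286, 194, 183 and 158 counts against 166, 77, 302 and 242. Its log2 fold change was 0.94 ± 0.23 (SE; edgeR's adjusted p = 0.00966). The call of Hadha lay close to the threshold and was kept in 1 of 8 fits that each left out a library, the one without the vehicle library 1; the log2 fold change stayed between 0.68 and 1.13. Acaa2 had 95, 53, 59 and 38 counts with pyraclostrobin and 100, 54, 163 and 152 with vehicle, 23.7 ± 9.59 CPM against 25.4 ± 6.91 CPM (SD, n = 4 each). Acaa2 overlapped fully, with a log2 fold change of -0.09 ± 0.28 (SE; edgeR's adjusted p = 0.835).

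Ppara was the least abundant member after Angptl4, with 9, 5, 9 and 10 counts with pyraclostrobin and 2, 1, 9 and 4 with vehicle. In CPM it was 1.88 to 3.95 against 0.389 to 1.21, without overlap, and with no filter on counts its log2 fold change was 1.86 ± 0.48 (SE; edgeR's adjusted p = 0.00919). Per kilobase of exon, the vehicle levels ran from Acaa2 at 16.7 through Hadha at 7.78, Acadm at 2.99, Acadl at 2.64, Cpt1a at 1.83, Plin2 at 1.67, Pdk4 at 0.372 and Ppara at 0.190 to Angptl4 at 0.0228 CPM per kilobase; neighbours in the stretch from Acadm to Plin2 differed by less than the larger of their SDs. With pyraclostrobin, Acadl (20.5), Cpt1a (15.9), Acaa2 (15.6) and Hadha (14.8) lay close together at the top on the same scale. Their order was within the SD of the libraries. The lengths were unions of all annotated exons of a gene, from another annotation than the RefSeq models of the counts. The order between genes is therefore approximate in both groups.

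**Figure D1:**
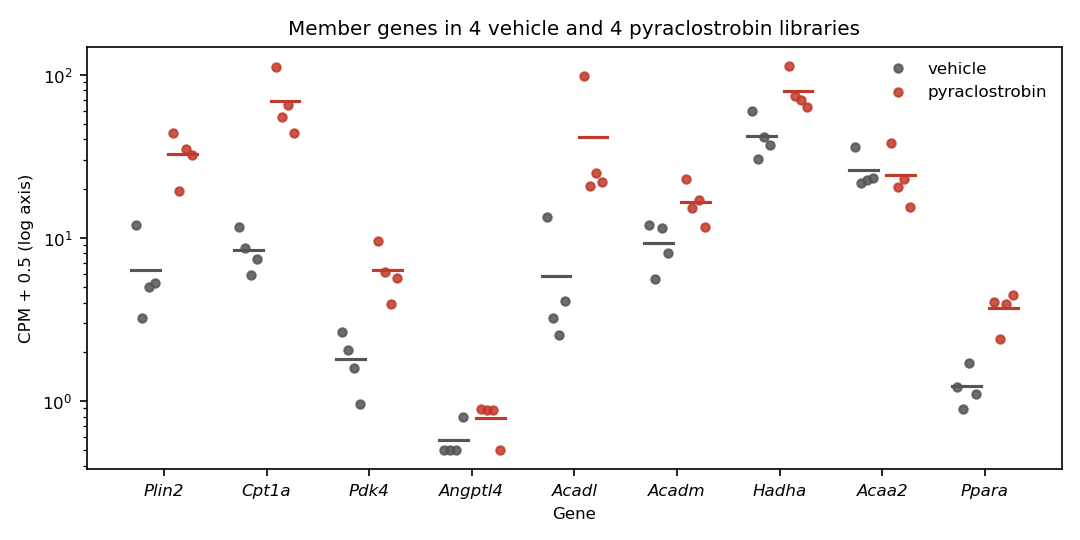
CPM plus 0.5, on a log axis, for the 9 members in 4 vehicle libraries (grey) and 4 pyraclostrobin libraries (red), ordered from library 1 to 4 within a group; short lines are means. Cpt1a, Plin2, Acadl, Hadha, Pdk4 and Ppara do not overlap between groups, whereas Acaa2 does, and Angptl4 lies at 0 to 2 counts.

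Of the 6 members tested, 4 did not overlap between groups, all of them higher with pyraclostrobin; 18.2% of all genes tested did so, and 16.9% lay wholly below vehicle. An exact two-sided permutation test on log2(CPM + 0.5) gave p = 0.0286 for Plin2, Cpt1a, Pdk4, Acadl, Hadha and Ppara, the smallest value that 4 against 4 libraries allow, p = 0.0571 for Acadm, p = 0.143 for Angptl4 and p = 0.657 for Acaa2. In 7 of the 9 members (all but Angptl4 and Ppara), library 1 was the highest in both groups. Without both libraries 1, a fit chosen after seeing the data, 4 members were again called. That fit called 4773 genes in all, against 2631 in the main fit, so a call was more common in it.

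Markers of cell types moved in the same comparison. All 6 neuronal markers tested were called lower (median log2 fold change -1.11), and their summed level was 3375 to 4243 CPM with pyraclostrobin against 7686 to 8563 CPM with vehicle. Of markers of mural cells and fibroblasts, 5 of 6 were called higher, and the sum was 1188 to 1627 CPM against 91.1 to 203 CPM. All 5 microglial markers tested were called higher, with a sum of 65.5 to 123 CPM against 20.2 to 27.3 CPM. Of these, Trem2 (0.9 to 4.28 CPM with vehicle) and Csf1r (1.65 to 3.57 CPM with vehicle) needed their pyraclostrobin counts to be tested. So did the mural marker Pdgfrb (1.95 to 3.92 CPM with vehicle). Aif1, the other microglial marker, had too few counts to be tested. The share of rises in the microglial and mural lists was thus in part set by the filter on counts. Of 7 astrocyte markers, 1 was called (Gja1, higher), with a median log2 fold change of 1.96 and a sum of 1054 to 3615 CPM against 723 to 1223 CPM. Of the few endothelial markers, Kdr alone had enough counts to be tested and was called higher, with a sum over 4 markers of 14.7 to 23.2 CPM against 4.72 to 9.63 CPM, and 1 of 4 oligodendrocyte markers tested was called higher. The part of these shifts in the values of the members was not tested. In such mixed cultures, fewer cells of a type and less RNA per cell cannot be told apart by RNA levels. The paper reports no significant change in counts of NeuN, Gfap or Iba1 positive cells with fenamidone, another complex III inhibitor. It gives no such counts for pyraclostrobin.

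Other genes of the pathway were taken from 8 lists, with 84 genes apart from the members, of which 67 could be tested: 11 were called higher with pyraclostrobin, 7 lower and 49 were not called. Over all genes tested, 12.1% were called higher and 9.22% lower. The median log2 fold change of the pathway genes tested was 0.30, beside 0.00 over all genes. Mitochondrial beta-oxidation held the largest number of rises, 4 of 12 genes tested and no fall: Decr1, the dienoyl-CoA reductase for unsaturated chains, was higher by 3.42 ± 0.56 on the log2 scale (1.52 to 15.6 CPM in the means), the short-chain dehydrogenase Acads by 2.29 ± 0.49, the hydroxyacyl dehydrogenase Hadh by 1.90 ± 0.35 and the very-long-chain dehydrogenase Acadvl by 1.40 ± 0.32. All 12 had positive fold changes, with a median of 1.26. The filter on counts can be met by the pyraclostrobin libraries alone. Decr1, at 6.76 to 31.8 CPM with pyraclostrobin and 1.08 to 2.5 CPM with vehicle, was tested through its pyraclostrobin counts. A gene so low with vehicle could be tested only if it was higher with pyraclostrobin. The direction of Decr1, and in part that of the list, was thus set by the filter. Acads (7.11 to 22.4 against 1.35 to 7.13 CPM) and Eci1 (3.95 to 15.3 against 0.389 to 4.64 CPM) also needed their pyraclostrobin counts to be tested. Hadhb, the partner subunit of Hadha, had a log2 fold change of 1.34 ± 0.35 and missed the threshold (adjusted p = 0.0116).

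Of the carnitine shuttle, Cpt2, which completes the transfer inside the mitochondrion, was called (1.89 ± 0.33), and 4 of the 5 genes tested were not, among them the carnitine-acylcarnitine carrier Slc25a20 (0.62 ± 0.37) and the neuronal form Cpt1c (0.42 ± 0.19). Peroxisomal oxidation showed 1 call among 9 genes, the bifunctional enzyme Hsd17b4 (0.85 ± 0.20). Of lipid droplet genes, Plin3, a perilipin found on small droplets and in the cytosol, rose by 2.83 ± 0.48. Plin3 too was tested through its pyraclostrobin counts (5.26 to 12.2 CPM against 0.404 to 2.14 CPM with vehicle). The triglyceride synthase Dgat2 fell by 0.71 on the log2 scale, and 6 of 8 lipid droplet genes were not called. Among acyl-CoA synthetases and thioesterases, the mitochondrial thioesterase Acot2 rose (2.02 ± 0.36), while the thioesterase Acot7 (-1.0 ± 0.17) and the synthetases Acsl4 (-0.81 ± 0.16) and Acsl3 (-0.77 ± 0.13) fell. In the list of fatty acid uptake and binding, Slc27a4 alone of 7 genes tested was called, and it fell (-0.94 ± 0.19). In the list of ketone body metabolism and other PPAR targets, the uncoupling protein Ucp2 rose (2.43 ± 0.35), and Bdh1 (-0.78 ± 0.15) and Oxct1 (-0.61 ± 0.10), the enzymes by which ketone bodies are used, fell. Ucp2, like Plin3, was tested through its pyraclostrobin counts (7.89 to 18.1 CPM against 1.35 to 3.0 CPM with vehicle).

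Of 8 receptors and cofactors tested, Ppard, the PPAR form that is widespread in brain, rose by 0.89 ± 0.19 and the partner receptor Rxra by 1.28 ± 0.21 (16.3 to 30.5 and 12.1 to 29.3 CPM in the means). The others were not called: Rxrb had a log2 fold change of -0.40 ± 0.13, Rxrg -1.46 ± 0.43, the coactivator Ppargc1a -0.31 ± 0.16, Ppargc1b -0.01 ± 0.47, and the corepressors Ncor1 0.23 ± 0.21 and Nrip1 -0.16 ± 0.33. Pparg had too few counts to be tested.

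**Figure D2:**
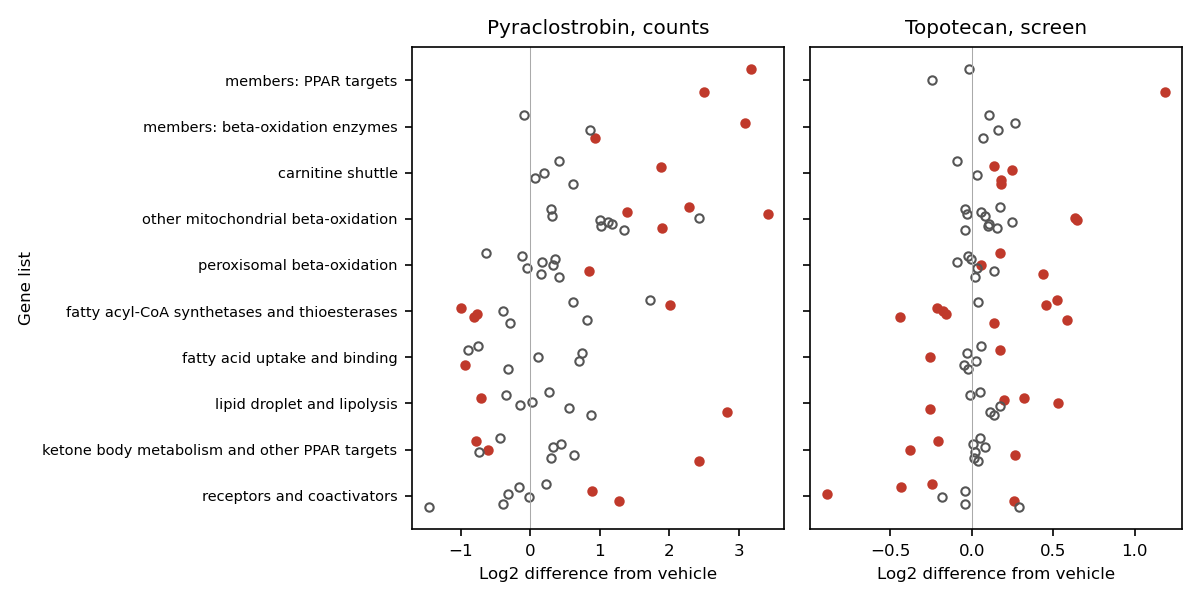
Log2 difference from vehicle of each gene tested in 10 lists, for pyraclostrobin (left, counts) and topotecan (right, screen); red points passed the threshold of the comparison (0.01 and 0.05), open points did not. With pyraclostrobin, all 12 other genes of mitochondrial beta-oxidation lie above 0, a direction that was in part set by the filter on counts. With topotecan, Plin2 at 1.19 stands to the right of every other gene shown.

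In the screen, pyraclostrobin was represented by a single library, again at 0.1 μM, whose label carries the library number of the pyraclostrobin library 1 of the count table. Its values are therefore that library in another normalisation and no second observation. There the deviation of Acadl was 1.72, the highest of 297 chemicals, that of Cpt1a 1.29, the third highest, that of Hadha 0.55, the 7th highest, and that of Plin2 0.65, the 53rd highest. Acaa2 was not among the 30 highest for any of 10 inhibitors of complex I or complex III that were set side by side.

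The 5 chemicals with the highest Cpt1a in the whole screen were all inhibitors of the respiratory chain. These were fenpyroximate, a complex I inhibitor, at 1.62 (0.1 μM), and the complex III inhibitors famoxadone at 1.31 (10 μM, 2 libraries at 0.98 and 1.65), pyraclostrobin at 1.29, fenamidone at 1.16 (10 μM, 2 libraries, both at 1.16) and trifloxystrobin at 1.16 (10 μM). Rotenone, a complex I inhibitor, was the 11th highest at 0.89 (0.01 μM, 2 libraries at 0.83 and 0.96). These 6 were above the highest of the 49 vehicle libraries (0.63), as were 20 of the 297 chemicals in all. The remaining 4 inhibitors lay within the range of vehicle: fluoxastrobin at 0.49 (1 μM), pyridaben at 0.32 (0.1 μM), azoxystrobin at 0.28 (0.1 μM) and tebufenpyrad at -0.15 (0.01 μM). Concentrations differed between these chemicals, so their values stand side by side without a test.

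Acadl was above 0 with all 10 inhibitors, from 0.08 to 1.72 with a median of 0.79. The median over all 297 chemicals was 0.08, so values above 0 were common. Of the 10 inhibitors, 5 were among the 30 highest chemicals in Acadl. Plin2 ranged from -0.58 with azoxystrobin to 1.05 with fenamidone, and 3 of 10 (fenamidone, fenpyroximate at 1.03 and trifloxystrobin at 0.87) exceeded every vehicle library. Among these 10, which need not be all such inhibitors in the screen, Pdk4 was highest with rotenone (1.05, the 14th of 297). Hadha was highest among them with fenpyroximate (0.60, the 4th). Ppara had a median of 0.37 over the 10 inhibitors and exceeded the vehicle range with none of them. The mean of the 6 neuronal markers was below all vehicle libraries with 8 of the 10. That of the mural and fibroblast markers was above all vehicle libraries with 6. The same counts over all 297 chemicals are not given here. Over all 297 chemicals, Cpt1a had Spearman's rho of 0.30 with the mean of the mural and fibroblast markers, 0.24 with that of the astrocyte markers and -0.30 with that of the neuronal markers. These correlations are descriptions, and most points are single libraries; the part of the markers in the Cpt1a values was not tested.

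**Figure D3:**
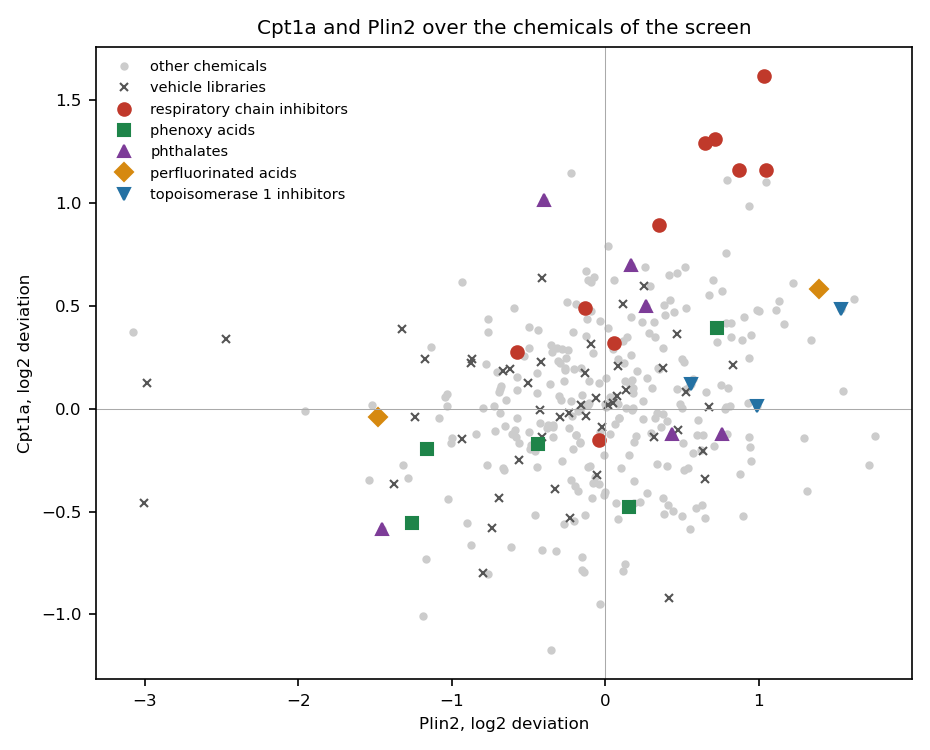
Deviation of Cpt1a (y axis) against that of Plin2 (x axis), both log2, for 297 chemicals (medians of their libraries) and 49 single vehicle libraries (crosses); coloured symbols mark 5 chemical classes. The 5 highest points in Cpt1a are respiratory chain inhibitors, and vehicle reaches down to -3.01 in Plin2.

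With topotecan, Plin2 was higher than with vehicle, and none of the other 7 members measured passed the test. Plin2 lay between -1.02 and 2.00 in 32 topotecan libraries, with a median of 0.99, and between -3.01 and 0.84 in 49 vehicle libraries, with a median of -0.23. Of the topotecan libraries, 31 were above the vehicle median and 18 above every vehicle library. The ranges overlapped, and the other 14 topotecan libraries lay within the range of vehicle. The difference of means was 1.19 ± 0.17 on the log2 scale (SE; 95% interval 0.85 to 1.52), a 2.28-fold difference, with an adjusted p of 6.45e-09 in limma's test over 13304 genes; a two-sided permutation test with 100000 resamples gave p = 2e-05, the smallest value it can give. With topotecan, 24.9% of all genes were called higher and 20.9% lower at the threshold of 0.05, so a call alone was common.

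Vehicle varied more in Plin2 than in any other member, with an SD of 0.84, against 0.27 in Hadha, the least variable, and 7 vehicle libraries lay below all topotecan libraries. The vehicle median of Plin2 was also lower than the median of the chemicals, -0.23 against 0.03. Set beside the chemicals rather than vehicle, topotecan was the 19th highest of 297 in Plin2. The related topoisomerase 1 inhibitors camptothecin (0.3 μM) and irinotecan (10 μM), of 1 library each, had Plin2 deviations of 1.54, the 5th highest, and 0.56, the 62nd highest. Camptothecin was within the range of the topotecan libraries at the same concentration.

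The other members differed little with topotecan. Cpt1a had medians of 0.01 with topotecan and 0.02 with vehicle, a difference of means of -0.02 ± 0.08 (95% interval -0.18 to 0.14). Acadl differed by 0.27 ± 0.14 (limma's adjusted p = 0.105), Acadm by 0.16 ± 0.08 (0.116), Acaa2 by 0.11 ± 0.07 (0.187), Hadha by 0.07 ± 0.06 (0.345), Ppara by -0.18 ± 0.12 (0.198) and Pdk4 by -0.24 ± 0.15 (0.197). Permutation p-values for these 7 genes ran from 0.0562 for Acadl to 0.802 for Cpt1a. The 95% intervals of these differences stayed within 0.55 in either direction, so that larger changes of these 7 genes would lie outside them.

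**Figure D4:**
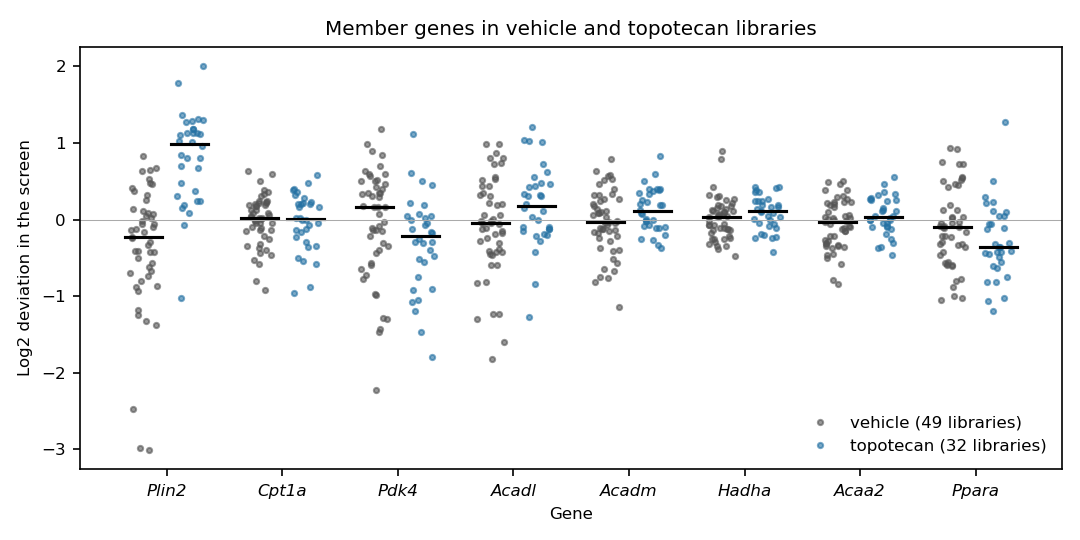
Log2 deviation of 8 members in each of 49 vehicle libraries (grey) and 32 topotecan libraries (blue); black lines are medians. Plin2 has medians of -0.23 and 0.99, and the other genes overlap almost fully.

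Of 69 other pathway genes measured in the screen, 19 were called higher with topotecan and 11 lower. Over all genes, 24.9% were called higher and 20.9% lower, so calls in the lists are given as descriptions of single genes. The median difference of the 69 was 0.05, beside 0.03 over all genes. Beside Plin2, 3 lipid droplet genes of 9 rose: Hilpda, an inhibitor of lipolysis (0.53 ± 0.09), and the triglyceride synthases Dgat1 (0.32 ± 0.08) and Dgat2 (0.20 ± 0.04); the monoglyceride lipase Mgll fell (-0.25 ± 0.04). Of mitochondrial beta-oxidation, Eci1 (0.64 ± 0.19) and Eci2 (0.64 ± 0.14), isomerases for unsaturated chains, were called among 12 genes. Of the carnitine shuttle, 4 of 6 genes were called higher, by small amounts: Cpt2 by 0.24 ± 0.09, Slc25a20 by 0.18 ± 0.07, Slc22a5, a carnitine transporter of the cell membrane, by 0.18 ± 0.07, and Cpt1c by 0.14 ± 0.05. Of the peroxisomal genes, Pex11a, which takes part in the division of peroxisomes, rose by 0.44 ± 0.14.

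Among synthetases and thioesterases, 4 of 9 rose with topotecan and 4 fell: the largest rises were Acsl5 (0.58 ± 0.11), Acot1 (0.52 ± 0.08) and Acot2 (0.46 ± 0.09), and Acsl4 fell most (-0.44 ± 0.04). In uptake and binding, Fabp5 rose (0.17 ± 0.06) and Lpl, the lipoprotein lipase, fell (-0.26 ± 0.06). Oxct1 (-0.38 ± 0.02) and Bdh1 (-0.21 ± 0.03) fell and Pdk2 rose (0.26 ± 0.08) among ketone body genes and other targets. Of the receptors and cofactors, Rxra rose (0.26 ± 0.06), and Ppargc1a (-0.89 ± 0.05), Nrip1 (-0.43 ± 0.05) and Ncor1 (-0.24 ± 0.03) fell; Ppard differed by -0.04 ± 0.07, Rxrb by -0.04 ± 0.04, Ppargc1b by -0.18 ± 0.11 and Rxrg by 0.29 ± 0.18, none of them called. With topotecan, 6 of 6 neuronal and 5 of 7 astrocyte markers were called lower (medians of -0.26 and -0.43), 1 of 4 microglial and 1 of 6 mural or fibroblast markers were called lower, the endothelial marker Kdr was called lower, and of 4 oligodendrocyte markers 1 was called higher and 1 lower. The part of these shifts in the Plin2 difference was not tested.

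The phenoxy acid herbicides, which resemble the fibrates in structure, were 5 single libraries at 10 μM: 2,4-D, 2,4-DB, dichlorprop, MCPA and cloprop. None of the 8 members was called against all other chemicals; limma called 0 of 13304 genes in this comparison (0% of all genes), with 851 genes at an unadjusted p under 0.05. Plin2 deviated by -1.26 with 2,4-D, -1.16 with dichlorprop, -0.44 with MCPA, 0.16 with cloprop and 0.73 with 2,4-DB. All 5 values were within the range of the vehicle libraries. The mean difference from other chemicals was -0.44 ± 0.30 (SE; 95% interval -1.02 to 0.14; limma's adjusted p = 0.835). It was -0.23 without 2,4-D, -0.25 without dichlorprop, -0.72 without 2,4-DB and -0.025 when the acids were set against vehicle libraries. The other members differed by -0.29 ± 0.16 (Acadm) to 0.14 ± 0.12 (Hadha). For Cpt1a the difference was -0.26 ± 0.19 (95% interval -0.63 to 0.12), an interval that leaves room for a small rise or a larger fall, and it was -0.40 without 2,4-DB and -0.17 without 2,4-D.

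2,4-DB differs from 2,4-D by a longer acid chain, a butyric in place of an acetic acid. At the same concentration, Plin2 was 1.98 higher with 2,4-DB and Cpt1a 0.95 higher, on the log2 scale. Libraries of 1 chemical differed by a median of 0.51 and at most 2.28 in Plin2, and by 0.26 and at most 0.98 in Cpt1a (19 pairs from 14 chemicals, topotecan not included). The 32 topotecan libraries differed from each other by a median of 0.57 and at most 3.03 in Plin2, and by 0.36 and at most 1.54 in Cpt1a. Both differences were within the largest seen between repeats. Dichlorprop, the propionic acid, was 0.09 above 2,4-D in Plin2 and 0.36 above it in Cpt1a. MCPA had a Ppara deviation of 0.95, above all 49 vehicle libraries and the 5th highest of 297. With 1 library for each acid, no pair could be tested.

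Aryloxyphenoxypropionate herbicides, all of them esters, were 6 single libraries at 10 μM. No member was called, in a comparison in which 1 gene of 13304 was (0.00752%; 609 genes at an unadjusted p under 0.05). Plin2 deviated by -1.31 with diclofop-methyl and by -0.34 to 0.25 with the other 5, a mean difference of -0.38 ± 0.27 (SE; 95% interval -0.91 to 0.16) that was -0.18 without diclofop-methyl and 0.043 against vehicle libraries. Fluazifop-butyl, used at 0.1 μM, was left out of this group and had deviations of -0.12 in Plin2 and 0.43 in Cpt1a.

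Phthalates were 6 single libraries at 10 μM, and again no member was called, beside 1 gene of all (0.00752%; 689 genes at an unadjusted p under 0.05). Cpt1a was 1.02 with methyl hydrogen phthalate, 0.70 with diethylhexyl phthalate and 0.50 with dimethyl phthalate, and -0.12, -0.12 and -0.58 with the mono-2-ethylhexyl ester (MEHP), monobutyl phthalate and dibutyl phthalate. The first 2 were above all vehicle libraries. The mean difference of Cpt1a was 0.18 ± 0.17 (SE; 95% interval -0.16 to 0.53; limma's adjusted p = 0.994). It was 0.028 without methyl hydrogen phthalate, 0.092 without diethylhexyl phthalate and 0.35 without dibutyl phthalate. MEHP, the monoester that is formed from diethylhexyl phthalate in the body and a known PPARα activator in liver, had a Plin2 deviation of 0.43 and was 0.27 above its parent in Plin2 and 0.82 below it in Cpt1a. Monobutyl phthalate was 2.21 above dibutyl phthalate in Plin2 (0.76 against -1.45), within the largest difference between repeats of a chemical. Methyl hydrogen phthalate was 0.51 above dimethyl phthalate in Cpt1a and 0.66 below it in Plin2. In these single libraries, the monoesters did not share a direction relative to their diesters. The differences of these pairs were also within the largest between repeats (2.28 in Plin2 and 0.98 in Cpt1a), and no pair was tested.

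Perfluorooctanoic acid (10 μM, 1 library) had a Plin2 deviation of 1.39, the 6th highest of 297 and above all vehicle libraries. Its Cpt1a deviation was 0.58 (28th) and that of Pdk4 0.79 (29th), both within the vehicle range. Ppara was at -1.36, the second lowest of all chemicals and below all vehicle libraries, and Hadha was at 0.32, Acaa2 at 0.08, Acadm at -0.20 and Acadl at -0.29. The 3 targets measured were thus above 0 and the oxidation enzymes lay on both sides of 0 in this library. Perfluorooctane sulfonic acid, with a sulfonic in place of the carboxylic acid group and the same concentration, had Plin2 at -1.48, the 5th lowest, with Cpt1a at -0.04, Acadm at -0.83 and Hadha at -0.50. The pair differed by 2.87 in Plin2, more than any repeat of the 14 chemicals other than topotecan (at most 2.28) and less than the most distant pair of topotecan libraries (3.03) and of vehicle libraries (3.84), and single libraries allowed no test.

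**Figure D5:**
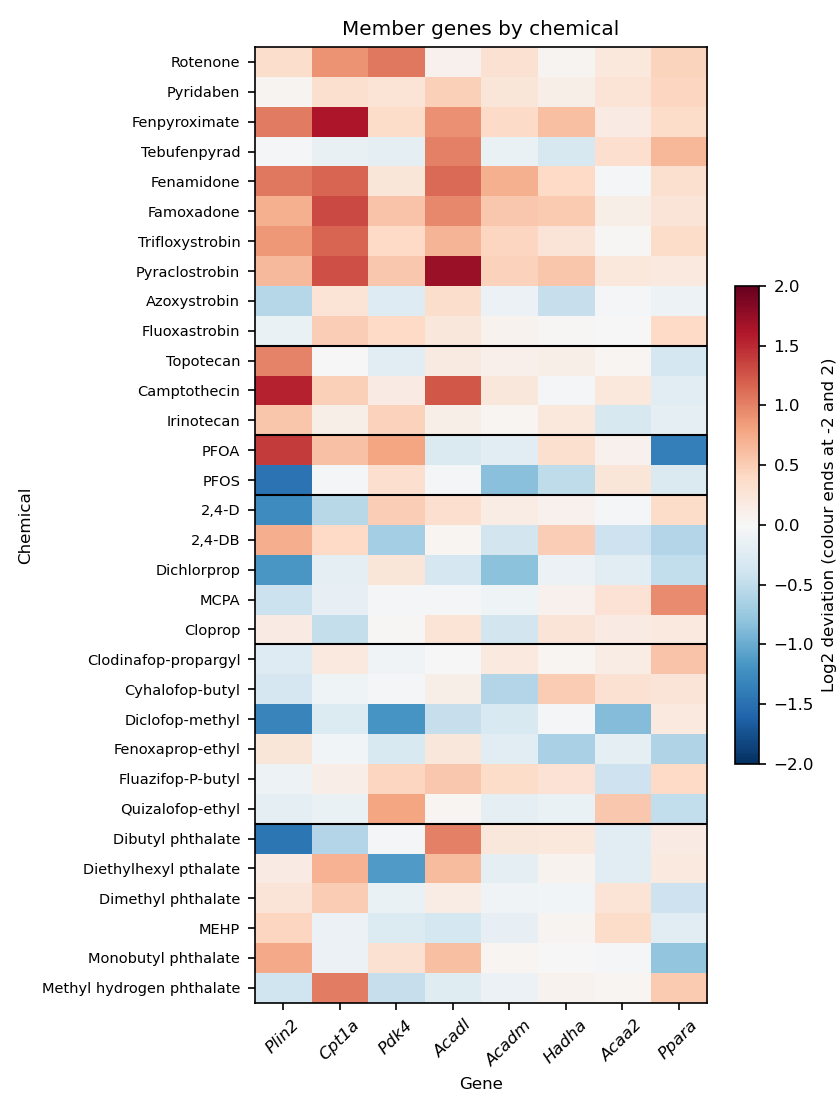
Log2 deviation of 8 members (columns) with 32 chemicals (rows: 10 respiratory chain inhibitors, 3 topoisomerase 1 inhibitors, 2 perfluorinated acids, 5 phenoxy acids, 6 aryloxyphenoxypropionates and 6 phthalates, divided by lines); red is higher and blue lower, and PFOA and PFOS are the perfluorinated acids. Cpt1a and Acadl are red in most rows of the first block, whereas Plin2 holds both signs within the herbicide and phthalate blocks, from -1.45 to 0.76.

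Of the diphenyl ether herbicides, all at 10 μM, lactofen had a Plin2 deviation of 0.89, above the highest vehicle library (0.84), and oxyfluorfen (0.79) and acifluorfen (0.53) were within the vehicle range. The pyridinyloxyacetic acid fluroxypyr (10 μM) had the lowest Cpt1a of all chemicals, -1.17, below every vehicle library, and its relative triclopyr was at -0.50. These are single libraries.

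Across all chemicals, the extremes of each member were mostly different chemicals. Plin2 was highest with diclosulam (1.76; 0.1 μM by its label), nitrapyrin (1.72) and methyl isothiocyanate (1.62), and lowest with captan (-3.07), quinclorac (-1.96) and ethoprop (-1.54). It exceeded all vehicle libraries with 31 chemicals and fell below them with 1, captan. Cpt1a was lowest, after fluroxypyr, with ethofumesate (-1.01) and fenamiphos (-0.95). Pdk4 was highest with bifenazate (1.5), S-bioallethrin (1.45) and bendiocarb (1.27), and lowest with cyproconazole (-2.36), methidathion (-1.96) and norflurazon (-1.93).

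Among the enzymes, Acadl was highest with pyraclostrobin, mesosulfuron-methyl (1.56) and fentin (1.35), and lowest with ethoprop (-2.45), triadimefon (-2.41) and milbemectin (-1.50). Acadm was highest with dimethenamid (1.03), fluazinam (0.87) and bendiocarb (0.85), and lowest with ethylenethiourea (-1.0), hexythiazox (-0.85) and perfluorooctane sulfonic acid. Hadha stayed within 0.73 of 0, highest with TCMTB (0.73), dimethomorph (0.65) and metam-sodium (0.61) and lowest with fludioxonil (-0.68), malathion (-0.68) and fenoxaprop-ethyl (-0.65). Acaa2 was highest with azinphos-methyl (0.89), aldicarb (0.82) and clofentezine (0.79), and lowest with fipronil (-1.09), tribufos (-1.07) and butafenacil (-1.01). Ppara was highest with triclosan (1.16), cacodylic acid (1.01) and flumioxazin (1.00), and lowest with dimethomorph (-1.55), perfluorooctanoic acid and fluroxypyr-meptyl (-1.27).

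Most of these are single libraries, and for most members the spread over chemicals was narrower than or about equal to that over vehicle libraries. The SD was 0.66 over chemicals and 0.84 over vehicle for Plin2, 0.42 and 0.33 for Cpt1a, 0.67 and 0.72 for Pdk4, 0.63 and 0.65 for Acadl, 0.35 and 0.42 for Acadm, 0.27 and 0.27 for Hadha, 0.36 and 0.32 for Acaa2, and 0.51 and 0.52 for Ppara. Cpt1a had the largest excess of chemicals over vehicle in this measure.

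Correlations between members over the screen were weak. Spearman's rho over the 297 chemicals ran from -0.09 to 0.24 in 28 pairs of members, with a median of 0.08. The 4 highest were Plin2 with Cpt1a (0.24), Cpt1a with Acadl (0.21), Cpt1a with Pdk4 (0.20) and Plin2 with Acadl (0.20). The genes whose values were most like those of Cpt1a were Msn (0.48), Pdlim5 (0.46) and Csf1 (0.46), and those most like Plin2 were Fstl1 (0.36), Fkbp9 (0.34) and Sdc4 (0.33). The nearest to Acadm was Hsd17b4 of the peroxisomal list, at 0.23. For the others the nearest genes were Gla, Spidr and Pbxip1 for Pdk4 (0.26 to 0.29), Efna4, Tvp23b and Sept2 for Acadl (0.24 to 0.29), Clu, Rpl41 and Mt3 for Hadha (0.28 to 0.29), Polr2e and Ercc3 for Acaa2 (0.27 to 0.29), and Slc35e1, Wbscr17 and Parp14 for Ppara (0.22 to 0.23). Most points are single libraries, normalised together and corrected for batch by the authors, and the correlations are given as descriptions.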

How the data were processed

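Mouse cortical cultures were exposed to chemicals or vehicle, and libraries were assigned to chemicals by their labels. The authors aligned reads with TopHat to mm9 and counted them on gene models; the count values for pyraclostrobin were deposited as raw counts, whereas the screen was deposited as log10 values that the authors had derived from RPKM, normalised by quantiles, centred per gene and corrected for batch. These were converted to log2. Counts (at least 10 in at least 4 libraries, TMM) were tested in R 4.3.3 with edgeR 4.0.16 at 0.01 and screen values with limma 3.58.1 (variance trend) at 0.05. Classes were compared with all other chemicals, each as the median of its libraries. Confidence intervals of screen differences came from the SE and the t distribution. Alternatives included DESeq2 1.42.0, other thresholds and filters, vehicle as reference and removal of each library or chemical. Python 3.11.15 with scipy 1.17.1 gave permutation tests. The pyraclostrobin, topotecan and phenoxy acid comparisons were checked on simulated data, and those of aryloxyphenoxypropionates and phthalates were not. For phenoxy acids, no minimum share of recovered changes was required in that check. Exon lengths and gene positions came from an Ensembl-based annotation of mm9.

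The members and all gene and chemical lists were chosen with earlier results of these data known. Named are all members, up to 4 called genes with the largest differences in each list, all receptors, the 3 nearest genes and 3 highest and lowest chemicals of each member, and chemicals of the listed classes. A table of sulforaphane with fenamidone was not used, because its 6 columns carry 1 name and could not be assigned; the planned comparison was not run. A few listed genes that meet the naming rule are not reported here.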

Additional observations from a re-analysis of the deposited data

Results flagged for a closer look

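In groups of 4 to 6 libraries or chemicals, each highest and lowest value was compared with its group by Dixon's ratio, at the 95% critical value that chance exceeds in about 1 of 20 groups; 50 groups were searched and 7 values were found. On the scale of log2(CPM + 0.5), Acadl in the pyraclostrobin library 1 was at 6.62, above the other 3. Acaa2 in the vehicle library 1 was at 5.18, also above its group. Angptl4 stood out in both groups, with the pyraclostrobin library 4 at -1.0 and the vehicle library 4 at -0.32, which reflects 0 and 2 counts. In the screen, Plin2 with diclofop-methyl was at -1.31, below the other aryloxyphenoxypropionates. Among the 4 libraries of diethyltoluamide, 1 had Cpt1a at -0.41, below the others, and 1 had Hadha at 0.44, above the others.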

How the results depend on the processing

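The calls of Cpt1a and Plin2 with pyraclostrobin and of Plin2 with topotecan held under every alternative run. With pyraclostrobin, 4 members were called with size factors by relative log expression, with DESeq2 and with the replicate block, 6 with no filter and 5 at a threshold of 0.05, where Acadm (0.86) was added; leaving out each library in turn gave 2 to 4 members and 1682 to 4052 genes in all, against 2631. The count of genes called was 4301 at the threshold of 0.05 and 4773 without both libraries 1. Leaving out each library, Acaa2 lay between -0.44 and 0.10. The fit with a replicate block for the library number called 3135 genes; same-numbered libraries had correlations of 0.376, 0.102, -0.0287 and 0.161 in their deviations from the group means, and not every library was closest to its own number, so the numbers were not taken to pair the libraries. With topotecan, 1788 genes were called among variably expressed genes only, where fewer genes were tested, against 6090.

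No member was called for phenoxy acids, aryloxyphenoxypropionates or phthalates under any alternative run, and leaving out each chemical gave 0 to 2 genes called in all for each class. For both aryloxyphenoxypropionates and phthalates, 0 genes were called at 0.01 and against vehicle libraries. Signs near 0 turned. Against vehicle libraries, the difference was 0.019 for Acaa2 with phenoxy acids, 0.043 for Plin2 with aryloxyphenoxypropionates, and 0.33 for Plin2 and 0.0064 for Ppara with phthalates. Leaving out each chemical, the range for phenoxy acids was -0.11 to 0.19 for Pdk4, -0.053 to 0.12 for Acadl, -0.096 to 0.080 for Acaa2 and -0.12 to 0.26 for Ppara. For aryloxyphenoxypropionates it was -0.043 to 0.19 for Ppara, -0.23 to 0.16 for Pdk4, -0.18 to 0.11 for Acaa2, -0.12 to 0.11 for Hadha and -0.059 to 0.14 for Acadl. For phthalates it was -0.24 to 0.20 for Plin2, -0.0017 to 0.052 for Hadha and -0.21 to 0.049 for Ppara. The causes were not tested. A change of pseudocount could not be made, since the screen holds deviations, and the planned fits of sulforaphane with fenamidone were not run. At these depths, Pdk4, Ppara and Angptl4 were measured by fewer than 10 counts in each vehicle library.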
